A study of Mus musculus with 3 samples.

Results

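The 43 genes described here encode enzymes and carriers of the urea cycle and of amino acid breakdown in the liver. They were chosen by name: every non-control spot whose gene name on the array equals one of the 43 symbols was used. They make up 43 of 31803 gene names on the array, are carried by 54 probes in 63 spots, and were sorted into 12 pathways. Total RNA of isolated hepatocytes, the parenchymal cells of the liver, came from male wild-type C57BL/6 mice and was labelled with Cy3 and hybridised to 3 Agilent arrays of 1 colour, 1 array per group. The first group (SD, the standard-diet array) ate a standard diet from 6 weeks of age for 16 weeks, and the other groups ate a high-fat diet (HFD) over the same period. The HFD mice received intraperitoneal injections 2 times a week over the last 6 weeks, which began after 10 weeks of the diet, of either control IgG (the IgG array) or an antibody that blocks VLA-4, a leukocyte integrin (the anti-VLA-4 array). All mice were sampled at 22 weeks of age after an overnight fast, and the cells were freed from the liver with collagenase. The labels list no injection for SD mice, so diet and IgG injection differ together between SD and the IgG group. The number of mice behind an array is not given in the sources used here.

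Amino acids that are not used for protein lose their nitrogen in the liver: aminotransferases collect amino groups on glutamate and aspartate, glutamate dehydrogenase and glutaminase release ammonia, and the urea cycle joins ammonia and the nitrogen of aspartate into urea. The first steps of the cycle lie in the mitochondrion and the later ones in the cytosol, so ornithine and citrulline cross the inner mitochondrial membrane. The remaining carbon skeletons are broken down along a separate pathway for each amino acid and feed glucose and ketone body production in fasting, controlled in part by glucagon, glucocorticoids and C/EBP transcription factors.

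Each level below is the background-corrected signal of a gene's brightest probe divided by the 75th percentile of that array's signals, on a linear scale, and each difference is a log2 ratio between 2 arrays. Those percentiles were 500.3 to 574 signal units, 57.3% to 66.5% of the spots were well above background, and 0 were saturated. With 1 array per group no difference has a replicate check, no test was made, and the spread between mice or preparations is unknown, so the number of arrays limits the precision. The scanner error of a log2 difference, which covers error within an array only, was 0.20 to 0.21 for the 43 genes. It derives from the error that the image software assigns to each spot. That error had a median of 10.1% to 10.2% of the signal over spots well above background, so it is nearly the same for each of the 43 genes. The standard-diet and IgG arrays lay on 1 slide and the anti-VLA-4 array on another, and antibody and slide thus cannot be told apart. Fewer hepatocytes in a preparation and less RNA per hepatocyte cannot be told apart either. Of 9 hepatocyte markers, all 9 were well above background on all arrays and 0 differed by 2-fold in any comparison, with summed levels of 4343 for SD, 4009.6 for IgG and 4020.1 for anti-VLA-4. At 1.5-fold 2 of the 9 were lower with IgG than with standard diet, Apoa1 (-0.73) and Hnf4a (-0.68), and with Apob (-0.54) 3 were lower by more than 2 scanner errors. Markers of other liver cells differed between the arrays. The macrophage and Kupffer cell markers exceeded standard diet by 2-fold or more with IgG in 12 of 12 cases (summed levels 10.5, 68.6 and 51.2), as did 8 of 10 sinusoidal endothelial markers (14.9, 55.2 and 33.6) and 9 of 10 stellate cell and fibroblast markers (3.41, 32.4 and 16.0). Cholangiocyte markers were 2-fold higher in 4 of 6 cases, neutrophil and monocyte markers in 2 of 6 compared, and markers of T, NK and B cells in 0 of 3 compared, with 1 lower. Of all genes compared, 20.4% were at least 2-fold higher with IgG than with standard diet and 2.42% lower. Many markers of these other cells were dim, and only the main processing was applied to them. On the standard-diet array 10 of 12, 10 of 10 and 4 of 10 of the Kupffer, endothelial and stellate markers were well above background, and their part in the differences below was not tested.

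The comparison of the IgG array with the standard-diet array asks how the preparations differed with the high-fat diet. On the IgG array 3 of the 43 genes lay at least 2-fold below standard diet and 0 lay 2-fold above it. The lower genes were Aass, the first enzyme of lysine breakdown (2.38-fold), Cps1, the entry enzyme of the urea cycle (2.20-fold), and Asl, which releases arginine in the cycle (2.01-fold). Of all 21962 genes compared, 2.42% lay at least 2-fold below standard diet and 20.4% above, and of the 8641 bright genes, those whose signal passed the 75th percentile of at least 1 of the arrays, 1.93% were lower and 4.27% higher. All but 1 of the 43 genes passed it on every array. At the smaller size of 1.5-fold, 7 of the 43 were lower, the further ones being Tat, Got1, Mat1a and Sdsl, and 0 were higher, where 7.23% of the bright genes were lower and 7.04% higher. The remaining genes lay on both sides: 22 of 43 differences were above 0, the median was 0.03, and the range ran from -1.25 to 0.58. The median over all genes compared was 0.04 and over the bright genes -0.10. With normexp background correction, which lowered bright genes as a whole on the IgG array (median -0.59), 42 of the 43 lay below standard diet, with a median of -0.59 too, and the genes at least 2-fold lower became 9, with Tat, Got1, Mat1a, Sdsl, Ahcy and Arg1 added.

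**Figure D1:**
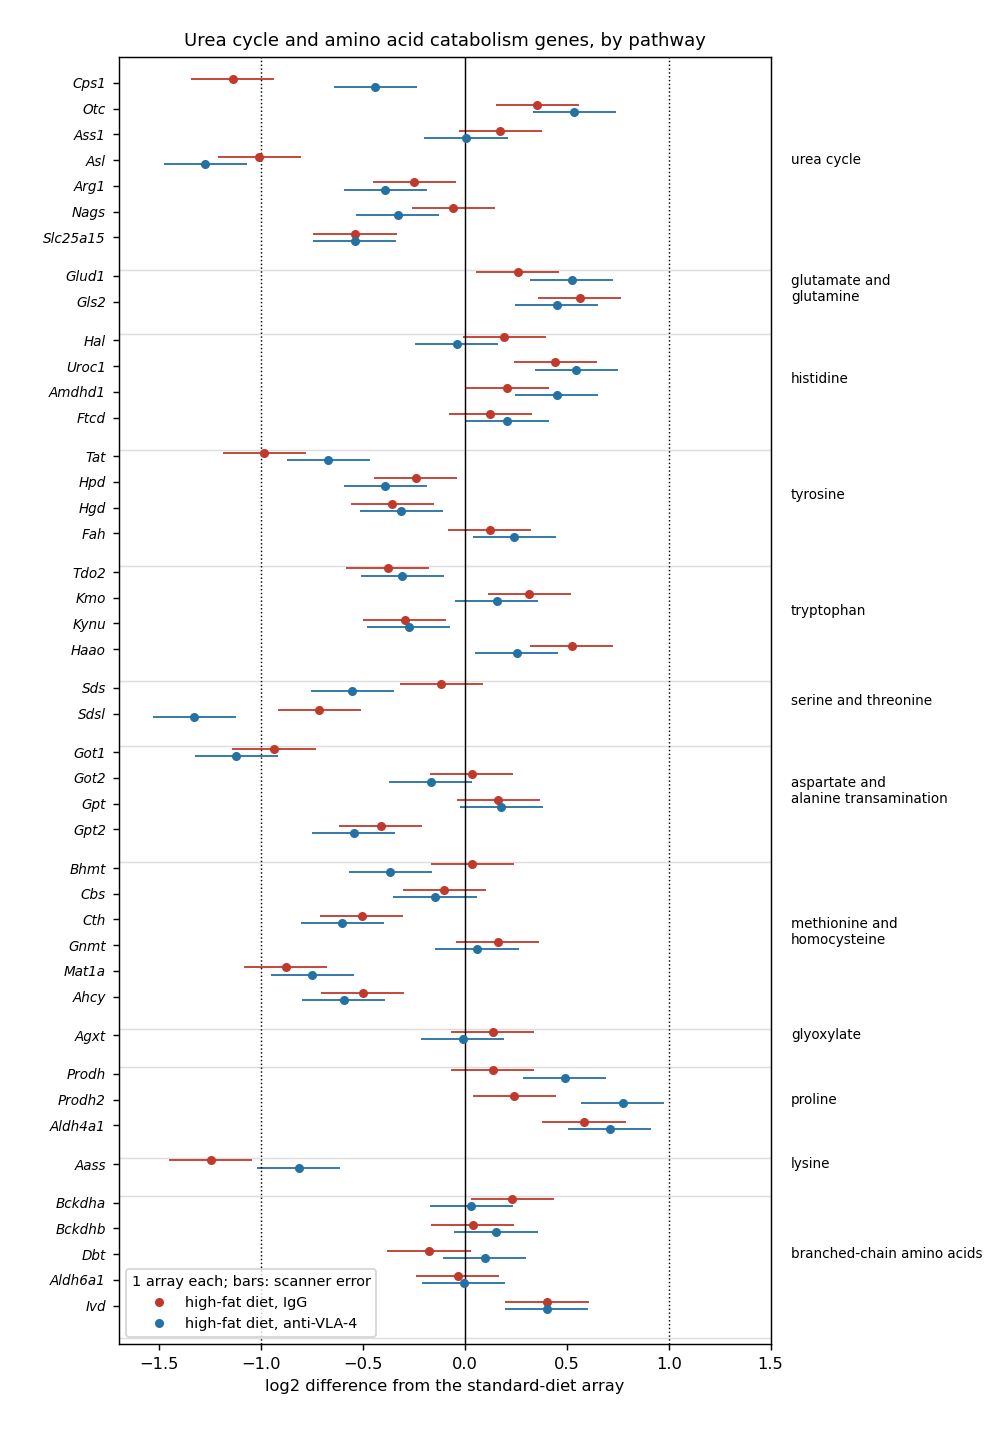
Log2 difference of each of the 43 genes from the standard-diet array, for the IgG array (red) and the anti-VLA-4 array (blue), grouped by pathway; bars are the scanner's error of 1 array against 1, and dotted lines mark 2-fold. Aass, Cps1 and Asl reach the left dotted line with IgG, Sdsl, Asl and Got1 with anti-VLA-4, and no gene reaches the right one. Both sets of points share the standard-diet array.

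**Figure D2:**
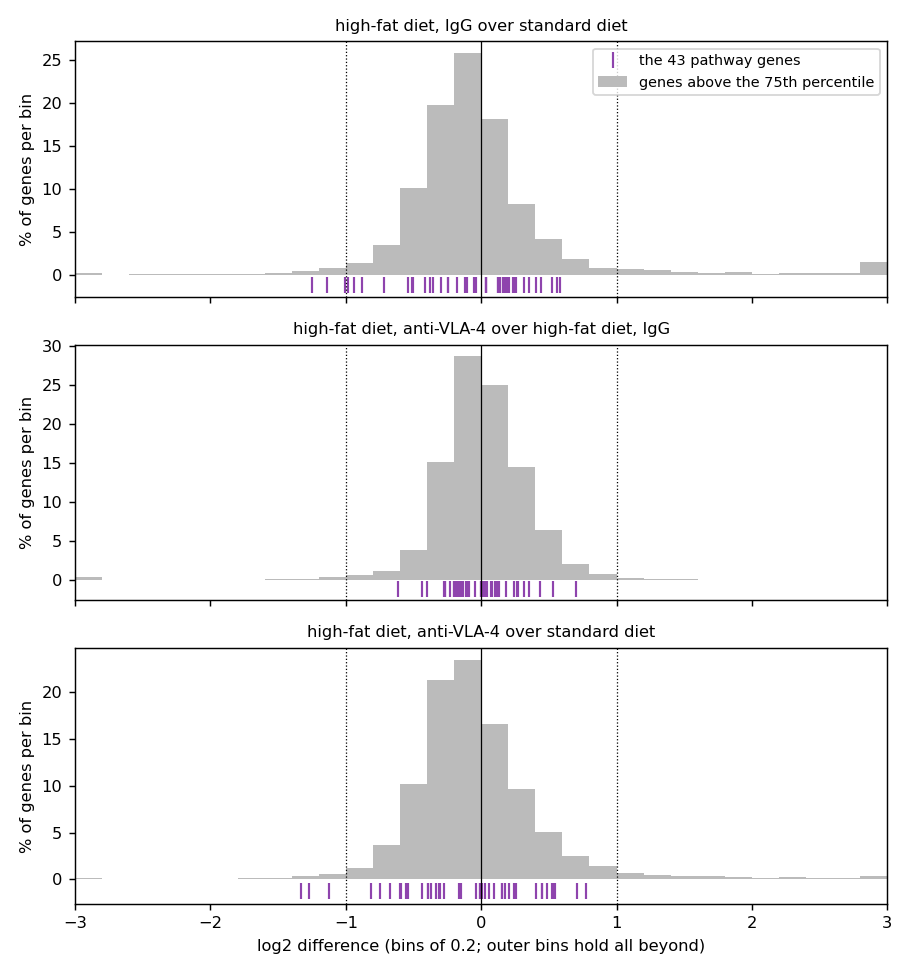
Log2 differences of the 43 genes (purple ticks) under the distribution of all bright genes (above the 75th percentile; grey, % of genes per bin of 0.2), 1 panel per comparison. The ticks cover the middle of each distribution, with a left tail to -1.25 for IgG over standard diet and to -1.33 for anti-VLA-4 over standard diet.

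Promoter sequences are shown for genes among those that differed most. RefSeq windows from 250 bases before to 50 after a gene's start, on build GRCm38.p6, were found for 32 of the 43 genes (35 windows). The genes not matched were Cps1, Asl, Arg1, Gls2, Kynu, Sds, Sdsl, Gpt, Cth, Mat1a and Dbt. Printed here are the 250 bases before the start, 5′ to 3′ on the gene's strand, of 3 genes that were lower on both HFD arrays (Aass, Got1 and Tat) and 2 that were higher (Prodh2 and Aldh4a1, higher with IgG under all alternatives but normexp), with matches to a searched motif in capitals. Their positions are chr6:23132987-23133236 (minus strand) for Aass, chr19:43524606-43524855 (minus strand) for Got1, chr8:109990186-109990435 (plus strand) for Tat, chr7:30493408-30493657 (plus strand) for Prodh2 and chr4:139622644-139622893 (plus strand) for Aldh4a1.
Aass: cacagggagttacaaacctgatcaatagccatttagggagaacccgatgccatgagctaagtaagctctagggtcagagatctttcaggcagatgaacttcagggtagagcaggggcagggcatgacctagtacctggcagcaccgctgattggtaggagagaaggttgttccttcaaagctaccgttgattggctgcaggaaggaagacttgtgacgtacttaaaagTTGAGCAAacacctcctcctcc
Got1: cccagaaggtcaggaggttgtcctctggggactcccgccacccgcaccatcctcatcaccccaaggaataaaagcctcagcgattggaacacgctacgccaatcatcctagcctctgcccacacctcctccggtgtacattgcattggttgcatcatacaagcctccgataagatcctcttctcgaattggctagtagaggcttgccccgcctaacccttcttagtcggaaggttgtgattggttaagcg
Tat: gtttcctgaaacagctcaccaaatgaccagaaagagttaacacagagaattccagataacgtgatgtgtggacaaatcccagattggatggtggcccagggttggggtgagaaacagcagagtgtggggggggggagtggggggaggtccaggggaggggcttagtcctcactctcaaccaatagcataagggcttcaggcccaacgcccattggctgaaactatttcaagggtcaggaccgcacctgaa
Prodh2: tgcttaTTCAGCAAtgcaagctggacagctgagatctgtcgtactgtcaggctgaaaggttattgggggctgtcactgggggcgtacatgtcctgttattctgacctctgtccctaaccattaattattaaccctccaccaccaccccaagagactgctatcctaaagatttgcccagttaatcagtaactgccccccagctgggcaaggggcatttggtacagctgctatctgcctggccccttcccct
Aldh4a1: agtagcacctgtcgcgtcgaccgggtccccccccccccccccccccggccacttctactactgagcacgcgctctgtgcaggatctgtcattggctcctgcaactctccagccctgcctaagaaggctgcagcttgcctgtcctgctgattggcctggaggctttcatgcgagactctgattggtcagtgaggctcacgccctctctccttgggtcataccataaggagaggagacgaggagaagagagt
Both strands were searched for 4 motifs. TTGCNNAA, a C/EBP pattern, occurred in 4 of the 35 windows (Hal, Hgd, Prodh2 and Aass) and in 10.8% of 32851 RefSeq windows of the same length. In the windows above it lies at position -22 from the start of Aass and at -244 from that of Prodh2. AGAACA, the half-site bound by the glucocorticoid receptor, occurred in 5 (Kmo, Haao, Agxt, Bckdhb and Aldh6a1) and in 19.0% of all windows. TGACGTCA, the cAMP response element, and CAAAGTCCA, an HNF4 pattern, occurred in 0 of the 35, and in 1.79% and 0.475% of all windows. No match overlapped a match of another motif. A match is a description of letters, and an absent match says only that the letters are not in this window.

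In the urea cycle, 2 of 7 genes were at least 2-fold lower on the IgG array and 0 higher, beside 1.93% and 4.27% of the bright genes. Cps1, the carbamoyl phosphate synthetase that fixes ammonia in the mitochondrion, had levels of 56.0 with standard diet, 25.4 with IgG and 41.3 with anti-VLA-4 (probe at chr1:67276029-67276088, build mm9 for all probe positions). The IgG array was the lowest of the 3 and the anti-VLA-4 array lay between: the IgG level was 2.20-fold below standard diet (log2 difference -1.14), and the anti-VLA-4 level was 1.62-fold above IgG (0.70) and 1.36-fold below standard diet (-0.44). Asl, argininosuccinate lyase, which splits argininosuccinate into arginine and fumarate, had levels of 82.4 with standard diet, 40.9 with IgG and 34.0 with anti-VLA-4 (chr5:130487964-130488549, a probe whose ends lie 586 bases apart on the genome). Both HFD arrays were low for Asl, by 2.01-fold with IgG and 2.42-fold with anti-VLA-4. Asl with IgG sits at the 2-fold line, and it fell short of 2-fold with quantile scaling, cyclic loess and the correction for probe purine share.

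The other cycle genes differed by less than 1.5-fold in all comparisons. Otc, ornithine transcarbamylase, which makes citrulline, had log2 differences of 0.36 for IgG over standard diet, 0.18 for anti-VLA-4 over IgG and 0.54 for anti-VLA-4 over standard diet, and differences below follow the same order. Its other probe, present in 10 spots, gave 0.59, -0.15 and 0.43, with a standard deviation of log2 signal over its spots within an array of 0.07 to 0.09. Ass1, which joins citrulline and aspartate, gave 0.17, -0.17 and 0.01, and Arg1, the arginase that releases urea and is also known from macrophages, gave -0.25, -0.14 and -0.39. Nags, which makes the activator of Cps1, gave -0.06, -0.27 and -0.33. Slc25a15, the mitochondrial ornithine carrier, was alike on both HFD arrays at -0.54 and -0.54 from standard diet. The differences of Cps1 and Asl were the lowest of the cycle with IgG, while Otc, the step between Cps1 and Ass1, was above standard diet on both HFD arrays, except on the IgG array with normexp background correction (-0.24).

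Among the genes that supply ammonia from glutamine and glutamate, both lay above standard diet on both HFD arrays, although below it on the IgG array with normexp background correction. Gls2, the liver glutaminase, had levels of 50.7 with standard diet, 74.9 with IgG and 69.2 with anti-VLA-4 (chr10:127646830-127646889). Its difference was 0.56 with IgG and 0.45 with anti-VLA-4, and -0.11 between these arrays. Glud1, glutamate dehydrogenase, gave 0.26, 0.26 and 0.52, so it was highest on the anti-VLA-4 array.

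The cytosolic aspartate aminotransferase Got1, which interconverts aspartate and glutamate and takes part in the malate-aspartate shuttle, was low on both HFD arrays. Its levels were 66.4 with standard diet, 34.7 with IgG and 30.5 with anti-VLA-4 (chr19:43574278-43574337), or 1.91-fold lower with IgG and 2.18-fold lower with anti-VLA-4 than with standard diet (-0.94 and -1.12). The mitochondrial isoenzyme Got2 gave 0.03, -0.20 and -0.17. The alanine aminotransferases were the other way round in compartment: the cytosolic Gpt gave 0.16, 0.01 and 0.18 and the mitochondrial Gpt2 -0.41, -0.13 and -0.55. None of the 3 besides Got1 differed by 1.5-fold.

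Aass, the mitochondrial enzyme that begins lysine breakdown, had levels of 129 with standard diet, 54.2 with IgG and 73.1 with anti-VLA-4 (chr6:23022668-23022727). It was the lowest of the 43 differences with IgG, at -1.25, and the anti-VLA-4 level lay between the others, 1.35-fold above IgG and 1.76-fold below standard diet (0.43 and -0.82). Aass and Cps1 remained at least 2-fold lower with IgG under all 10 alternatives of scaling, background, probe, filter and source of values. Each has 1 probe in 1 spot, well above background on all arrays. The mean over probes, the filters, kept outlier spots and the deposited table therefore could not change their values. Only the alternatives of scaling, background and purine share could.

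**Figure D3:**
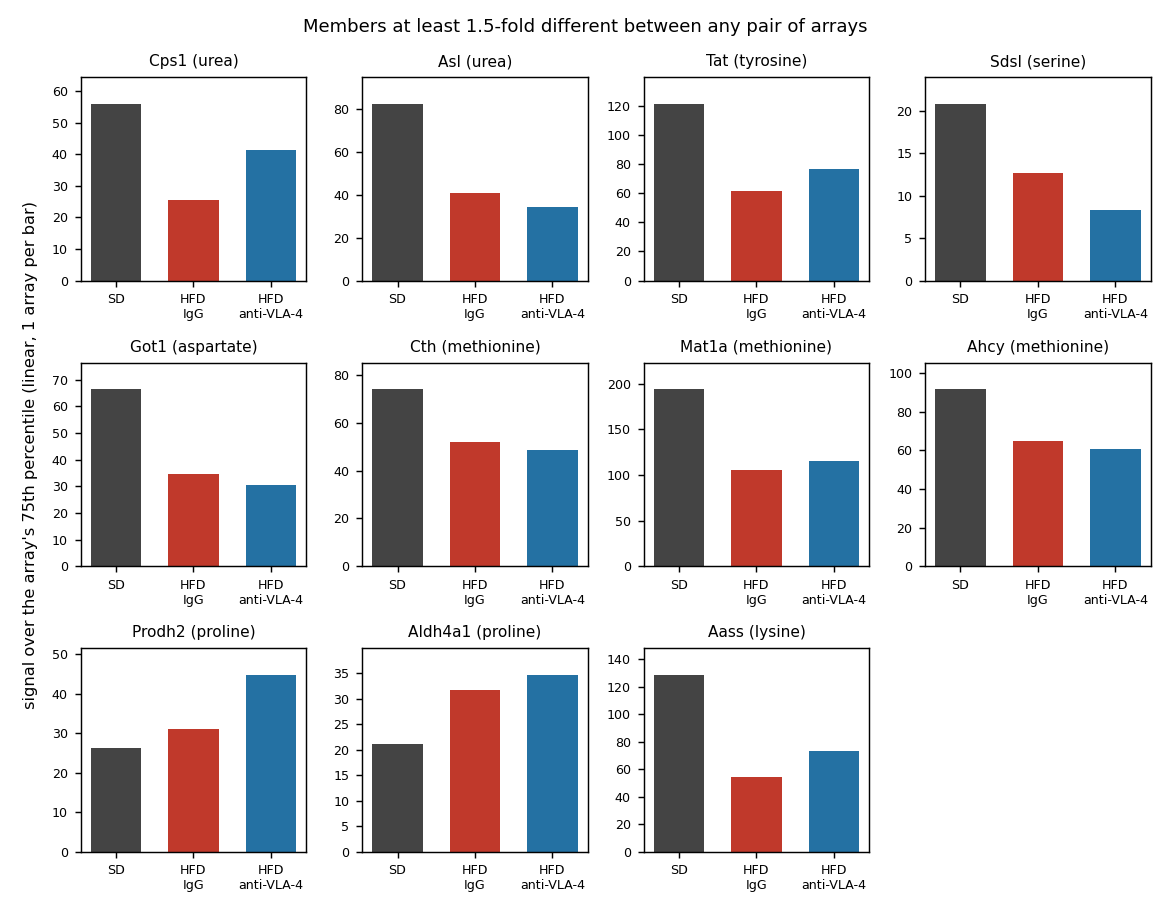
Level of each of the 11 genes that differed by at least 1.5-fold between any pair of arrays, as signal over the array's 75th percentile (linear axis from 0, a separate scale per gene, 1 array per bar, no error shown). Standard diet is the highest bar in 9 panels and the lowest for Prodh2 and Aldh4a1; anti-VLA-4 lies between the others for Cps1, Tat, Mat1a and Aass.

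In tyrosine breakdown, the first and rate-limiting enzyme had the lowest difference. Tat, tyrosine aminotransferase, a classic glucocorticoid and glucagon target, had levels of 121 with standard diet, 61.3 with IgG and 76.2 with anti-VLA-4 (chr8:112523207-112523266). Its IgG level was 1.98-fold below standard diet (-0.99), just short of 2-fold, and its anti-VLA-4 level 1.59-fold below (-0.67). Down the pathway the differences were smaller: Hpd, which makes homogentisate, gave -0.24, -0.15 and -0.39, Hgd, which opens its ring, -0.36, 0.05 and -0.31, and Fah, the last step, 0.12, 0.12 and 0.24.

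Both dehydratases of serine and threonine lay lower with anti-VLA-4 than with IgG. Sdsl, a serine dehydratase-like enzyme, had levels of 20.8 with standard diet, 12.7 with IgG and 8.30 with anti-VLA-4 (chr5:120908225-120908284). The anti-VLA-4 array was the lowest of the 3: IgG was 1.64-fold below standard diet, and anti-VLA-4 was 1.53-fold below IgG and 2.51-fold below standard diet (-0.72, -0.61 and -1.33). Sds, serine dehydratase, a gluconeogenic enzyme of the liver, gave -0.12, -0.44 and -0.55, with its lowest level on the anti-VLA-4 array too. For both genes anti-VLA-4 was below IgG and below standard diet under every alternative. Both have a single probe, so only the alternatives of scaling, background and purine share could change their values.

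The methionine cycle makes S-adenosylmethionine, the methyl donor of the cell, and passes its sulfur on to cysteine. Its 6 genes had a median of -0.30 with IgG and -0.48 with anti-VLA-4 against standard diet. At least 1.5-fold lower were 1 and 3 of 6, beside 7.23% and 7.07% of the bright genes. Mat1a, the S-adenosylmethionine synthetase of adult liver, had levels of 194 with standard diet, 105 with IgG and 116 with anti-VLA-4 (chr14:41937140-41937199). It was 1.84-fold lower with IgG and 1.68-fold lower with anti-VLA-4 (-0.88 and -0.75). Ahcy, which hydrolyses S-adenosylhomocysteine, followed with levels of 91.7, 64.8 and 60.7 on the SD, IgG and anti-VLA-4 arrays (chr2:154885047-154885106). Cth, cystathionine gamma-lyase, the last step to cysteine, had 74.0, 52.1 and 48.8 in the same order (chr3:157560183-157560242). By these probes both were high with standard diet and alike on the HFD arrays: Ahcy gave -0.50 and -0.59 from standard diet, and Cth -0.51 and -0.60. The other Cth probe, with a level of 59.4 on the SD array, gave -0.20, -0.22 and -0.41. The 1.5-fold difference of Cth with anti-VLA-4 thus depends on the probe. That of Ahcy depends on the processing, since it shrank to -0.44 in an alternative.

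The other genes of this pathway were closer to standard diet. Gnmt, which uses S-adenosylmethionine to methylate glycine, gave 0.16, -0.10 and 0.06, and Cbs, cystathionine beta-synthase, -0.10, -0.04 and -0.15. Bhmt, which remethylates homocysteine with betaine, gave 0.04, -0.40 and -0.37. It has 3 probes, and these ranged from -0.33 to 0.04 with IgG but were all below 0 in the other comparisons.

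In proline breakdown all 3 genes lay above standard diet on both HFD arrays and above IgG on the anti-VLA-4 array, with the exception that normexp background correction put all 3 below standard diet on the IgG array. Aldh4a1, the dehydrogenase of the mitochondrion that ends the proline and hydroxyproline pathways in glutamate or a related acid, had levels of 21.2 with standard diet, 31.7 with IgG and 34.6 with anti-VLA-4 (chr4:139205420-139205479). Its difference of 0.58 with IgG was the highest of the 43, and anti-VLA-4 was 1.64-fold above standard diet (0.71). Prodh2, hydroxyproline dehydrogenase, had levels of 26.2 with standard diet, 31.0 with IgG and 44.8 with anti-VLA-4 (chr7:31296177-31296236). Most of its difference lay between the HFD arrays: 0.24 for IgG over standard diet, 0.53 for anti-VLA-4 over IgG and 0.77 for anti-VLA-4 over standard diet. Prodh, proline dehydrogenase, gave 0.14, 0.35 and 0.49.

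Histidine breakdown converts histidine through urocanate to glutamate and a single-carbon unit on folate. Its 4 genes lay above standard diet on the IgG array by 0.12 to 0.44, and all 4 below it with normexp. Uroc1, urocanase, had levels of 34.5 with standard diet, 46.9 with IgG and 50.4 with anti-VLA-4 (chr6:90314337-90314396), higher on both HFD arrays (0.44 and 0.55). Amdhd1, the next enzyme, gave 0.21, 0.24 and 0.45, and Ftcd, which hands over the single-carbon unit, 0.12, 0.08 and 0.21. Hal, the first enzyme, gave 0.19, -0.23 and -0.04, so it was not higher with anti-VLA-4.

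Along the kynurenine pathway of tryptophan, the first enzyme and the hydrolase were below standard diet and the oxygenases further down above it on the HFD arrays. Haao, which opens the ring of hydroxyanthranilate, had levels of 54.0 with standard diet, 77.6 with IgG and 64.4 with anti-VLA-4 (chr17:84230696-84230755). It was highest on the IgG array (0.52). Kmo, the kynurenine hydroxylase, gave 0.32, -0.16 and 0.16 by its brighter probe and -0.05, 0.27 and 0.21 by its dimmer one, so its direction in the first 2 comparisons depends on the probe. Tdo2, tryptophan dioxygenase, which starts the pathway, gave -0.38, 0.07 and -0.31, and Kynu, kynureninase, -0.30, 0.02 and -0.28. All 4 lay below standard diet with normexp background correction, on both HFD arrays.

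The branched-chain amino acid genes and the glyoxylate aminotransferase stayed close to standard diet. Over the 5 branched-chain genes the differences ran from -0.18 to 0.40 with IgG, and 0 of 5 differed by 1.5-fold in any comparison. Of bright genes, 3.2% to 7.23% were at least 1.5-fold lower and 3.9% to 7.61% higher over the 3 comparisons. Ivd, isovaleryl-CoA dehydrogenase of leucine breakdown, had levels of 12.4 with standard diet, 16.4 with IgG and 16.4 with anti-VLA-4 (chr2:118706998-118707057), higher alike on both HFD arrays. Over the alternatives its difference from standard diet fell as low as -0.24 with IgG and -0.11 with anti-VLA-4. The subunits of the branched-chain ketoacid dehydrogenase gave 0.23, -0.20 and 0.03 for Bckdha, 0.04, 0.11 and 0.15 for Bckdhb and -0.18, 0.27 and 0.10 for Dbt. Dbt was the single gene of the 43 below the 75th percentile, with levels of 0.760, 0.673 and 0.812 on the SD, IgG and anti-VLA-4 arrays. Aldh6a1, of valine breakdown, gave -0.03, 0.03 and -0.01. Agxt, which detoxifies glyoxylate in the peroxisome, had levels of 106 with standard diet, 116 with IgG and 105 with anti-VLA-4 (chr1:95041901-95041959), within the scanner error of each other.

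The comparison of the anti-VLA-4 array with the IgG array asks what differed with the blocking antibody when the diet was shared. Here 0 of the 43 genes lay 2-fold below IgG and 0 lay 2-fold above it. Of all 22549 genes compared, 16.5% lay at least 2-fold below IgG and 1.9% above, and of the 8558 bright genes 1.3% were lower and 0.806% higher. At 1.5-fold, Sdsl was lower (-0.61) and Cps1 higher (0.70), against 3.2% and 3.9% of the bright genes. The members' median was -0.0012, beside -0.06 over all genes and -0.01 over bright genes, with 20 differences above 0 and 23 below. With normexp background correction the tally was 35 above and 8 below, with a median of 0.19, beside 0.14 over bright genes. Differences of more than 2 scanner errors were those of Sdsl and Sds, lower, and Cps1, Prodh2 and Aass, higher. Of the other cell types, 5 of 10 stellate and 3 of 10 endothelial markers were at least 2-fold lower on the anti-VLA-4 array, and 0 of 12 Kupffer cell markers, while cholangiocyte markers were lower in 3 of 6 cases. Neutrophil and monocyte markers were 2-fold higher in 2 of 7 compared (S100a8 4.09-fold and S100a9 4.62-fold) and lower in 1, and markers of T, NK and B cells differed by 2-fold in 0 of 6. Their part in the differences of the 43 genes was not tested.

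The anti-VLA-4 array set against the standard-diet array differs in diet, injection, antibody and slide together, which cannot be told apart, and shares an array with each comparison above. Levels of 3 of the 43 genes were at least 2-fold lower, Sdsl (2.51-fold), Asl (2.42-fold) and Got1 (2.18-fold), and 0 were higher. Of all 20297 genes 3.39% lay at least 2-fold below and 7.99% above, and of the 8570 bright genes 1.55% were lower and 3.34% higher. At 1.5-fold 8 genes were lower, which adds Tat, Cth (by its brighter probe), Mat1a, Ahcy and Aass, and 2 were higher, Prodh2 and Aldh4a1. Some of these fell short of 1.5-fold in an alternative: Ahcy reached -0.44, Tat -0.55, Prodh2 0.30 and Aldh4a1 0.31. Of bright genes 7.07% were lower and 7.61% higher at this size. The members' median was -0.04, beside 0.00 over all genes and -0.10 over bright genes. Sdsl, Asl and Got1 remained at least 2-fold lower under all 10 alternatives. Each has a single probe, so only the alternatives of scaling, background and purine share could change their values. With normexp 7 genes were at least 2-fold lower, 34 of the 43 lay below standard diet, and the median was -0.51, beside -0.41 over bright genes.

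The share of purines in a probe moved with the differences over the whole array, since the median of all genes in IgG over standard diet was -0.11 where a probe had at most 40% purines and 0.86 where it had over 60%. Among genes brighter than the 75th percentile of both arrays, the same medians were -0.13 and -0.02. Probes of the 43 genes held 36.7% to 68.3% purines (median 45.0%), and 31 of 43 held at most 50%. After subtraction of the median of bright genes of like purine share, the differences with IgG were -1.13 for Aass, -1.03 for Cps1 and -0.90 for Asl. Of the 43 genes 9 had several probes, which differed by at most 0.37 in log2 for IgG over standard diet. The largest gap was 0.43 for anti-VLA-4 over IgG and 0.37 for anti-VLA-4 over standard diet. In each of the first 2 comparisons 2 of the 9 genes had probes of opposite sign, and in the last 0 had. Whether a probe lies in coding sequence or UTR was not analysed here.

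Other genes of the same pathways, 78 in all with 75 compared, had a wider spread than the 43 (standard deviation over genes 0.68 against 0.48 in IgG over standard diet). On the IgG array 7 were at least 2-fold lower than with standard diet and 3 higher, with a median of 0.04. Of all genes compared, 2.42% were lower and 20.4% higher at this size. Oat, the ornithine aminotransferase that links ornithine to glutamate and proline, had levels of 75.2 with standard diet, 18.7 with IgG and 21.4 with anti-VLA-4. It was 4.02-fold lower with IgG and 3.52-fold lower with anti-VLA-4. Csad, which makes hypotaurine from cysteine sulfinate, had 34.8, 14.6 and 7.88 in the same order, lowest on the anti-VLA-4 array (-1.26 and -2.14 from standard diet). Acmsd, which diverts kynurenine metabolites from NAD synthesis, had 0.665, 0.332 and 0.308, but differences from standard diet of only -0.09 and -0.29 with normexp background correction. Dao, D-amino acid oxidase, was well above background on the IgG array alone, with levels of 0.00826, 0.144 and 0.00642. The bounds for IgG were 5.61-fold above standard diet and 6.43-fold above anti-VLA-4. Scanner errors of these log2 differences were 1.45 and 1.45, so both differences lay within 2 scanner errors. Tdh, threonine dehydrogenase, was 2.82-fold lower with anti-VLA-4 than with IgG, a difference of -0.53 with normexp. Between the HFD arrays 2 of 75 were at least 2-fold lower and 1 higher, where 16.5% and 1.9% of all genes were. Between anti-VLA-4 and standard diet 6 of 74 were lower and 3 higher, where 3.39% and 7.99% of all genes were.

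Of the 7 lower genes 4 were carriers that move amino acids across the cell or mitochondrial membrane. With IgG, 4 of 11 carriers compared were at least 2-fold lower than with standard diet and 1 higher, beside 2.42% and 20.4% of all genes. Slc25a15, described with the urea cycle, is not among the 11. Slc43a1, a carrier of large neutral amino acids, had levels of 0.757, 0.239 and 0.336 on the SD, IgG and anti-VLA-4 arrays (-1.66 and -1.17 from standard diet, but -0.32 and -0.34 with normexp). Slc1a2, a glutamate transporter, had 3.71, 1.42 and 1.52 (-1.39 and -1.28), and Slc25a22, the mitochondrial glutamate carrier, 8.99, 3.67 and 5.20 (-1.29 and -0.79). Slc16a10, an aromatic amino acid carrier, gave -1.04 with IgG, or -0.70 with normexp. Slc3a1, the heavy chain of the cystine and dibasic amino acid transporter, was the high one, with 1.40, 5.36 and 5.74.

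Between the HFD arrays, all 11 carriers compared from this list of 13 were above IgG on the anti-VLA-4 array. Their median was 0.61, and 6 of 11 were at least 1.5-fold higher. Slc25a15, the mitochondrial ornithine carrier, was counted with the urea cycle and lies outside this list. Its difference between these arrays was -0.0012, and it ran from -0.06 to 0.06 over the alternatives. Of all genes compared 42.4% lay above IgG and 7.11% at least 1.5-fold, and of bright genes 49.3% and 3.9%. With normexp 9 of 11 were above. Slc38a2, a carrier of small neutral amino acids that responds to amino acid supply, had levels of 5.92, 7.03 and 12.6, 1.79-fold above IgG. Slc7a5, the light chain of a large neutral amino acid transporter, was dim, at 0.0777, 0.0648 and 0.157, and 2.42-fold above IgG, but below it (-0.19) with normexp. Slc38a3, the glutamine carrier of periportal liver cells, gave 0.69. These values rest on 1 array on each side and on separate slides.

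**Figure D4:**
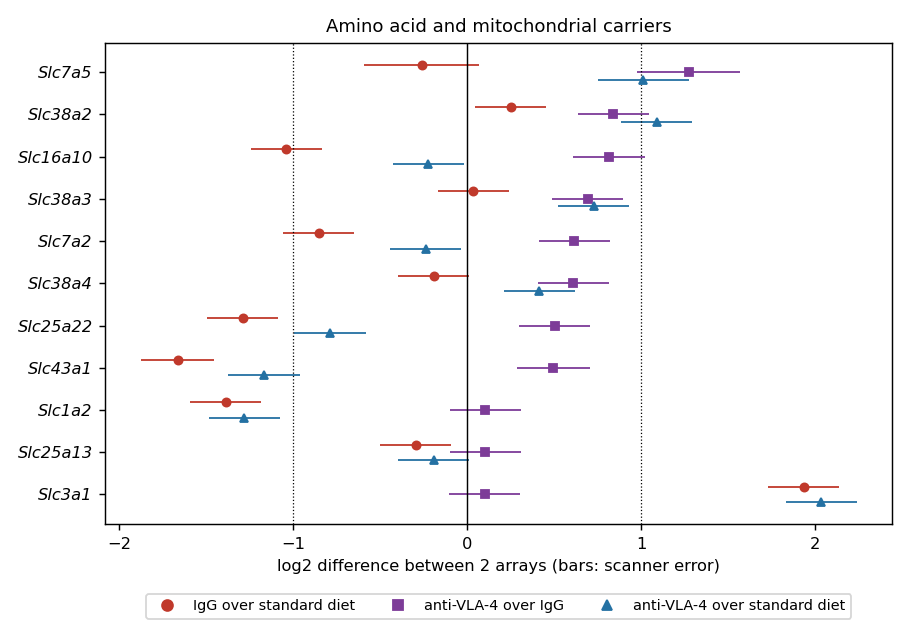
Log2 differences of the 11 amino acid and mitochondrial carriers compared, 1 point per comparison (red, IgG over standard diet; purple, anti-VLA-4 over IgG; blue, anti-VLA-4 over standard diet), with the scanner's error as bars and 2-fold as dotted lines. All purple points lie right of 0, from 0.10 for Slc3a1 to 1.27 for Slc7a5. Slc25a15, counted with the urea cycle, is not among the 11 (-0.0012 for anti-VLA-4 over IgG). The 3 comparisons share arrays.

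Of 12 regulators of these pathways (transcription factors and a coactivator, the receptors of glucagon and glucocorticoids, and the mitochondrial deacylase Sirt5), 0 differed by 2-fold in any comparison. Of all genes compared, 2.42%, 16.5% and 3.39% were at least 2-fold lower in the 3 comparisons, and 20.4%, 1.9% and 7.99% higher. Hnf4a, a transcription factor that maintains hepatocyte genes and is also 1 of the 9 hepatocyte markers, had levels of 148 with standard diet, 92.7 with IgG and 111 with anti-VLA-4. It was 1.60-fold lower with IgG (-0.68), the single regulator that differed by 1.5-fold, and -0.41 with anti-VLA-4. The glucagon receptor gene Gcgr, low on the same array, gave -0.45, 0.46 and 0.01. Cebpa gave 0.32, -0.13 and 0.20, Cebpb 0.18, 0.40 and 0.58, and the glucocorticoid receptor gene Nr3c1 0.15, 0.17 and 0.32. The medians over the 12 were -0.0040, 0.19 and 0.10.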

How the data were processed

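RNA of each group was measured on 1 array. The spot intensities and their errors come from Agilent Feature Extraction, given as version 11.0.1.1 in the submitters' processing notes, with background subtraction and detrending, per the file headers. Spot flags and classes are other values of that software, per the file headers. In the deposited value table every entry is a linear ratio and equals the processed intensity over the array's 75th percentile (largest relative deviation 2e-08), so scale and centring are known. Its column medians are 0.79, 0.80 and 0.81, and 0 columns were left unmatched. Probe positions are on build mm9, per the file headers.

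Values were log2 of processed signal minus log2 of the 75th percentile over 43020 non-control spots. Spots with an outlier flag (non-uniform or population) were dropped, spots of a probe averaged, and the probe with the highest mean used per gene name. Names of 42 of the 43 genes matched RefSeq by accession, and the brightest Ahcy probe carries an accession outside that table. A gene was compared where well above background on either array, and all 43 genes were so on all 3 arrays. Where the dimmer array was not, the fold is a lower bound. Genes were described by size, 2-fold and 1.5-fold. The members and lists were chosen with earlier results of these data known. All 43 genes are named, with levels for those at least 1.5-fold different in any comparison and for the largest IgG difference per pathway. Other pathway genes are named with values where 2-fold different and regulators where 1.5-fold. Some other pathway genes past this size are not reported here. Gcgr, Cebpa, Cebpb, Nr3c1, and Slc38a3 were named after their values were seen. The steps were tested on simulated data. The software was limma 3.58.1 in R 4.3.3, and pandas 2.3.3, numpy 2.4.6 and matplotlib 3.10.9 in Python 3.11.15.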

Additional observations from a re-analysis of the deposited data

How the results depend on the processing

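No replicate could be left out, since each group has 1 array, and no paired analysis was possible because no group has a second sample. The alternatives were normexp background correction with offset 50, cyclic loess, quantile scaling, scaling to the median of probes well above background, the mean over probes, no filter or a stricter filter on dim genes, outlier spots kept, the deposited value table, the probe's purine share and a 1.5-fold threshold. Normexp moved the median of the 43 genes to -0.59 with IgG and -0.51 with anti-VLA-4 against standard diet. It moved that of bright genes to -0.59 and -0.41, so the members lay -0.01 and -0.10 from them. The genes at least 2-fold lower became 9 and 7. At 1.5-fold, 7 were lower with IgG, 8 lower and 2 higher with anti-VLA-4 against standard diet, and 1 lower and 1 higher between the HFD arrays. The other counts of 2-fold differences stayed the same or within 1.5 times, and the other medians within the scanner error. The tally of signs of the 43 genes moved further with normexp: to 42 below and 1 above standard diet with IgG, 8 below and 35 above IgG with anti-VLA-4, and 34 below and 9 above standard diet with anti-VLA-4. Of single values of the 43 genes, 1181 stayed within the scanner error and 109 moved by more, 108 of them with normexp. For the 34 genes with 1 probe, the alternatives of probe, filter, outlier spots and deposited table could not move a value. Their values under these alternatives are among the 1181 by construction. The sign changed in some alternative for 27, 17 and 13 genes in the 3 comparisons, in the order of the report, and for 5, 6 and 5 with normexp left aside. For other pathway genes, alternatives added after seeing the data left 184 values within the error and moved 31. Slc7a5 in anti-VLA-4 over IgG turned to -0.19 with normexp. Over all genes, quantile scaling moved the share of lower among 2-fold differences from 10.6% to 52.4% with IgG, from 89.7% to 45.7% between the HFD arrays and from 29.8% to 42.6% for anti-VLA-4 over standard diet. The cause was not tested. Signal over background limits Slc7a5, Tdh and Dao, which are dim, more than the 43 genes.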
